A study of Mus musculus with 36 samples.

Results

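The comparison was of the cerebellum of 6 *Pogz* cKO-/- mice with that of 6 cKO+/- mice, 12 of the 36 RNA-seq samples of the series, chosen by the genotype and tissue in their titles. Adult C57Bl/6 mice were used, 3 males and 3 females of each genotype. The cKO-/- mice were NesCre/+; Pogzfl/fl and the cKO+/- mice were NesCre/+; Pogzfl/+, so both groups carried the Nestin-Cre transgene, which deletes the floxed exons of *Pogz* in cells that arise from Nestin-expressing progenitors of the nervous system. The step therefore went from 1 intact copy of *Pogz* to 0 with no difference in Cre. The cKO-/- mice carried 2 floxed copies and the cKO+/- mice 1 floxed and 1 wild-type copy, so the number of floxed copies also differed between the groups. Blood vessels, meninges and microglia do not come mainly from these progenitors and may keep an intact gene. The 6 cerebellar controls, Pogzfl/fl without Cre, are given only as a reference level. The remaining 18 samples were hippocampi of the same animals.

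POGZ is a zinc finger protein of the nucleus with a transposase-derived domain. It binds heterochromatin protein 1 and is found with ADNP and other chromatin regulators, and heterochromatin of this kind is known for keeping genes silent in cells that do not use them. Heterozygous mutations of the human gene are a known cause of intellectual disability and autism. The cerebellum is made up mostly of granule neurons, with Purkinje cells as its output neurons.

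In the main test, a short list of transcripts was higher with 0 than with 1 copy of *Pogz*, 6 of them at or below 1 CPM in every cKO+/- cerebellum. Fewer were lower. Of 24421 genes listed, 13880 were above 1 CPM (a count scaled to library size, at which 1 CPM was 21.4 to 32.5 reads) in at least 6 of the 12 samples, and 36 of them, 0.259%, differed at a false discovery rate of 0.05 in edgeR's quasi-likelihood test with sex as a covariate. In cKO-/- 30 genes were higher (0.216% of those tested) and 6 were lower (0.0432%). Fitted fold changes were above 1.5 for 32 of the 36, 27 of them higher, and above 2 for 25, 20 of them higher. At an unadjusted p under 0.05 there were 1140 genes, 553 higher and 587 lower, so the excess of higher genes was not in this wider set. Of the 30 genes called higher, 6 passed the filter only through cKO-/-, so the filter alone fixed their direction. The excess also depended on the test. DESeq2 called more genes on the same samples, and its higher and lower calls were nearer to even, as given with the alternatives below. In 112 genes, 0.807% of those tested, all 6 cKO-/- samples lay on one side of all 6 cKO+/- samples, 59 higher and 53 lower. All called genes but *Mybpc1* were among them. The median log2 fold change of all genes tested was -0.004.

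**Figure D1:**
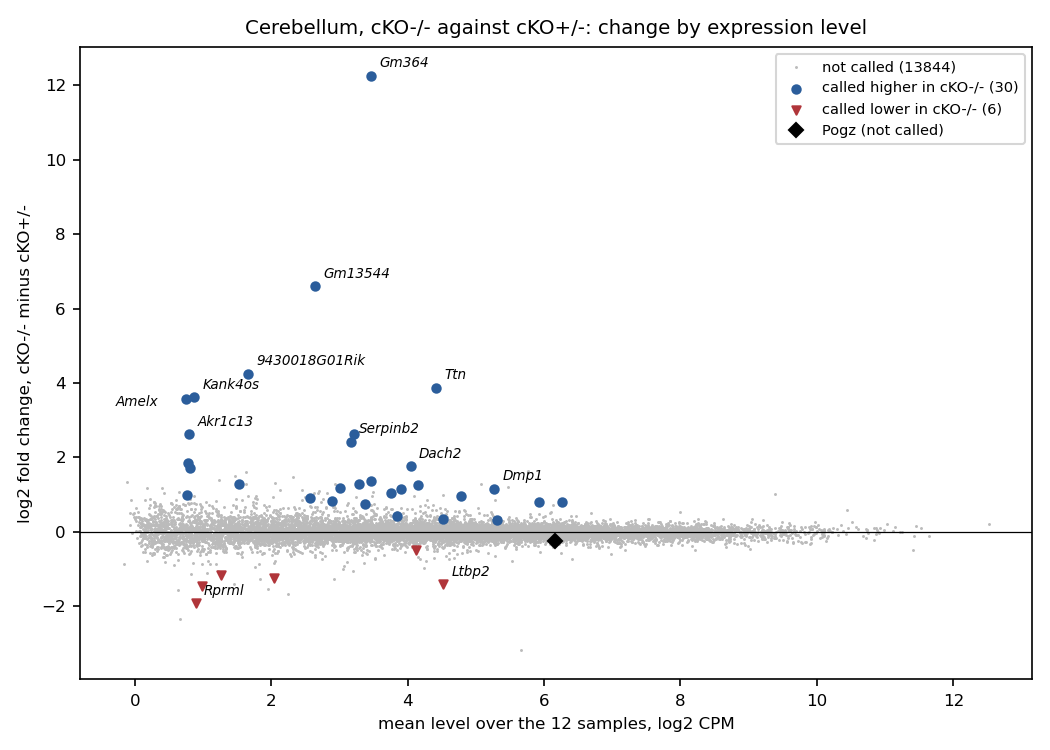
Log2 fold change of the 13880 genes tested (cKO-/- minus cKO+/-, vertical axis) against their mean level over the 12 cerebellar samples (log2 CPM, horizontal axis). Blue points are the 30 genes called higher, red triangles the 6 called lower, the black diamond *Pogz*, and grey points the other genes. The highest points were low or absent in cKO+/-, and *Gm364*, which had no count there, has a fitted value that depends on the prior count.

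The cerebellar samples held between 21421850 and 32544929 counts each. *Pcp2*, a Purkinje cell gene, was at 217 to 466 CPM and *Gabra6*, a granule cell gene, at 490 to 1086 CPM in these 12 samples, against at most 18.96 and 48.86 CPM in any hippocampal sample. Tissue taken along with the cerebellum varied from sample to sample in both groups. The summed level of 14 choroid plexus genes ran from 25.35 to 3263 CPM in cKO+/- and from 25.48 to 3164 CPM in cKO-/-. *Nrgn*, a forebrain neuron gene, was at 104, 44.7, 21.0 and 12.3 CPM in Sample_1385, Sample_1433, Sample_1379 and Sample_933, of which Sample_1385 and Sample_1379 are cKO-/-, and at 1.20 to 3.70 CPM in the others. A list of 24 brainstem and midbrain genes summed to 106 to 318 CPM in cKO+/- and 94.0 to 344 CPM in cKO-/-, with 2 of its genes at 0, and a blood list of 10 genes to 5.37 to 11.9 and 4.97 to 17.3 CPM, with 4 at 0. The first principal component took 36.6% of the variance and set the animals numbered from Sample_1120 to Sample_1219 apart from the others, of which only Sample_938 lay on their side. The cKO+/- group had 3 animals in that range and the cKO-/- group 2. The labels do not say what the numbers stand for.

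*Pogz* itself checked the labels only in part, because counts per gene do not separate the deleted exons from the rest of the transcript. Its level was 66.8 CPM in the lowest cKO+/- sample, 80.5 at the median and 81.5 in the highest, and 56.5, 64.7 and 74.1 CPM in cKO-/-. The controls, with both copies intact, were at 90.1 to 129 CPM, above every sample of both mutant groups. Between the mutant groups the ranges overlapped through Sample_933, the lowest cKO+/- sample, and the log2 fold change of -0.25 ± 0.08 (SE, n = 6 and 6) did not pass the test across all genes (edgeR, adjusted p = 0.399). A 2-sided exact permutation test of the group means of log2 CPM gave p = 0.0195.

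The 4 genes with the smallest p-values, and 6 of the first 7, were at or below 1 CPM in every cKO+/- sample. These 6 passed the filter only through cKO-/-, so the filter alone set a difference, and their ranks and p-values carry that selection. *Gm364*, an X-linked protein-coding gene with a provisional symbol (chrX:57409149-57488771, plus strand), had no count in any cKO+/- sample. In cKO-/- it was at 18.2 CPM in the lowest sample, 22.3 at the median and 25.1 in the highest, from 430 to 722 counts. The controls were at 0 to 0.035 CPM. Against a floor of 3 counts per library the cKO-/- mean was at least 213.5-fold higher (edgeR, adjusted p = 8.7e-07, n = 6 and 6). The floor and the counts behind it cover counting error only.

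Long noncoding RNAs followed. *Gm13544*, a long noncoding RNA on chromosome 2, was at 0.038 to 0.365 CPM in cKO+/-, a total of 22 counts over 6 samples, and at 9.36 to 16.1 CPM in cKO-/- with a median of 11.4 (log2 fold change 6.60 ± 0.36, adjusted p = 8.7e-07). Its exons share 336 bases with those of *Acvr1c*, an activin-type receptor gene on the opposite strand, which had a log2 fold change of -0.23 ± 0.17 and did not pass the test (adjusted p = 0.755). The use of strand in the counting is not given in the sources used here, so reads in the shared bases cannot be assigned to one of them. *Kank4os*, a long noncoding RNA named for its place on the strand opposite *Kank4*, went from 0.188 to 0.399 CPM in cKO+/- to 2.93 to 4.16 CPM in cKO-/- (medians 0.246 and 3.08, log2 fold change 3.61 ± 0.20, adjusted p = 9.4e-07). *Kank4* itself stood at a mean of 12.9 and 13.2 CPM (adjusted p = 0.974). *9430018G01Rik*, a long noncoding RNA on chromosome 6, went from a median of 0.296 CPM (0.125 to 0.639) to one of 6.23 CPM (4.07 to 6.90), a log2 fold change of 4.25 ± 0.31 (adjusted p = 1.3e-05).

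*Amelx* encodes amelogenin, the main matrix protein of forming tooth enamel, and lies on the X chromosome. It was at 0.109 to 0.470 CPM in cKO+/- and at 2.44 to 3.88 CPM in cKO-/-, with medians of 0.194 and 3.01 and a log2 fold change of 3.56 ± 0.28 (adjusted p = 3.0e-05). *Akr1c13*, an aldo-keto reductase gene of a cluster on chromosome 13, went from a median of 0.426 CPM (0.343 to 0.731) to one of 3.05 CPM (2.06 to 3.56), a log2 fold change of 2.63 ± 0.21 (adjusted p = 3.0e-05). For both genes no sample of one group reached the other. In the controls *Amelx* was at 0 to 0.158 CPM and *Akr1c13* at 0 to 0.158 CPM. These 2 genes, with *Gm364*, *Gm13544*, *Kank4os* and *9430018G01Rik*, were at or below 1 CPM in every cKO+/- sample. They passed the filter only through the cKO-/- group, as 7 genes in all did, while 0 passed only through the cKO+/- group. A gene that passes through 1 group alone differs between the groups by the filter alone.

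**Figure D2:**
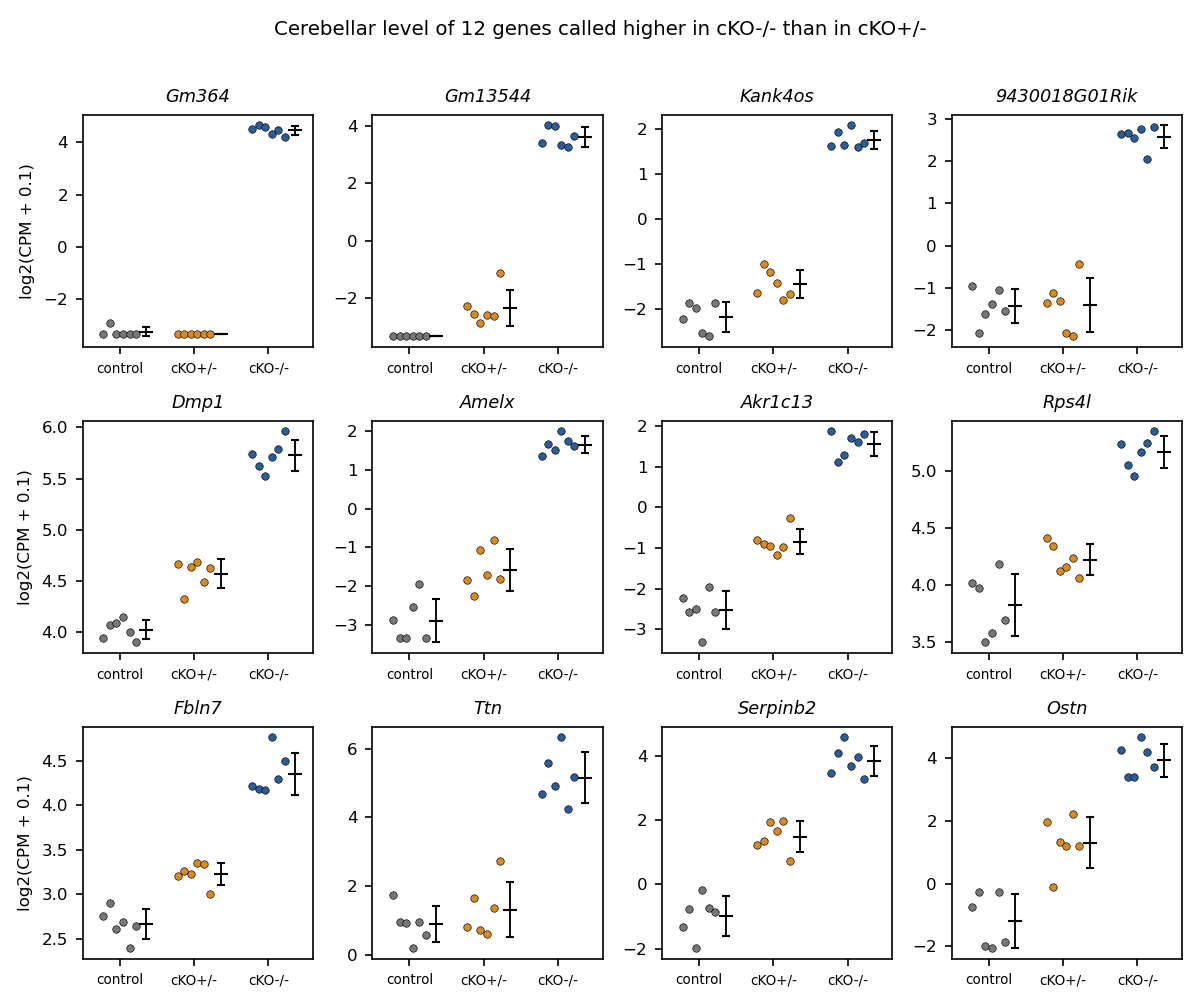
Level of the 12 genes with the smallest p-values among those called higher, as log2(CPM + 0.1), in cerebellar controls (grey), cKO+/- (orange) and cKO-/- (blue), 6 animals each. Points are animals and bars the mean and SD. In each panel the 6 cKO-/- points lie above all cKO+/- points.

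The promoters of these 6 genes are shown with that of *Ltbp2*, a gene that fell, to set their start regions side by side. Each is the RefSeq sequence of 300 bases on GRCm38.p6, from 250 bases before to 50 after the transcript start, written 5′ to 3′ on the gene's own strand, with CG dinucleotides, the sites of DNA methylation, in capitals.
Gm364 (chrX:57408899-57409198, plus strand): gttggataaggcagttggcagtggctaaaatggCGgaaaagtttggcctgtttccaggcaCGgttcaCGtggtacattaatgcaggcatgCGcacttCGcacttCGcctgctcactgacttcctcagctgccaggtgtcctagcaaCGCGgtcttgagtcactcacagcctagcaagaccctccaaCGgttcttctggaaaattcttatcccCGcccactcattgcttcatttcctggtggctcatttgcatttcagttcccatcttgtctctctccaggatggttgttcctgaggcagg
Gm13544 (chr2:58276529-58276828, plus strand): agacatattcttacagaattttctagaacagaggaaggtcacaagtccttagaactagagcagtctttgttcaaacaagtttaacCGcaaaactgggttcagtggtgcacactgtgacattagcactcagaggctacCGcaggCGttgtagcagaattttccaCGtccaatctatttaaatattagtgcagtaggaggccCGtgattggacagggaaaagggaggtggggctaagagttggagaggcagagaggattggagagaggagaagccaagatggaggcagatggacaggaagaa
Kank4os (chr4:98793518-98793817, plus strand): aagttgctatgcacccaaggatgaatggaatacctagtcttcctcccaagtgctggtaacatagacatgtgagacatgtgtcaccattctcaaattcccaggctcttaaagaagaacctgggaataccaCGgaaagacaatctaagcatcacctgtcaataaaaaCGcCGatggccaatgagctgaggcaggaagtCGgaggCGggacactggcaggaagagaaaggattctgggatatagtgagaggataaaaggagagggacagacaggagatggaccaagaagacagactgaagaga
9430018G01Rik (chr6:43442179-43442478, plus strand): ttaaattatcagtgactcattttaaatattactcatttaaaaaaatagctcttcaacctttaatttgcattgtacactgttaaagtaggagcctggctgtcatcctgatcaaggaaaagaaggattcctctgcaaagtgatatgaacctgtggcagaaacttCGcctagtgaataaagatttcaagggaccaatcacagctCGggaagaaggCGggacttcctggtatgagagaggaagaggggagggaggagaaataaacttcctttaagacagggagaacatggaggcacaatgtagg
Amelx (chrX:169187160-169187459, minus strand): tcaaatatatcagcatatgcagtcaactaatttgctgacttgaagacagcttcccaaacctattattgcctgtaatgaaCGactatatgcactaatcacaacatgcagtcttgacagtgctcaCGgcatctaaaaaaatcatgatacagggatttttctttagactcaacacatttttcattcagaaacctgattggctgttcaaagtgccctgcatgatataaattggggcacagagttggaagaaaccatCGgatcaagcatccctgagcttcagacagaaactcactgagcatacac
Akr1c13 (chr13:4190937-4191236, plus strand): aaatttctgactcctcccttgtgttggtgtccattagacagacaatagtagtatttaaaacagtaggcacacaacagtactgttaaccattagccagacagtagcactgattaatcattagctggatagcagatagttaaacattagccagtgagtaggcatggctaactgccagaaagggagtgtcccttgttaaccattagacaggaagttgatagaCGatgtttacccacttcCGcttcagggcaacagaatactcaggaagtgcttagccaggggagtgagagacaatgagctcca
Ltbp2 (chr12:84876442-84876741, minus strand): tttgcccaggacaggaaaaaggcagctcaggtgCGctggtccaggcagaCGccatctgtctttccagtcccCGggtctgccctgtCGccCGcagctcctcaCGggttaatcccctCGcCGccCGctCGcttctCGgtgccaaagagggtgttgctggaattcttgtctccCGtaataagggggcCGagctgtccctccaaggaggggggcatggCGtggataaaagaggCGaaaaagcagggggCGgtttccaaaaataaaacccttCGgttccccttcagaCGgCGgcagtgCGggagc
The 6 genes at or below 1 CPM in cKO+/- held 2 to 10 CG dinucleotides in this window, with a median of 4. Over the 10513 tested genes with a promoter in the table the median was 21 and the quartiles were 13 and 29. Of the 36 called genes 29 had a promoter in the table, and 26 of these started at exactly the position the count tables give. The 24 called higher had a median of 5.5 CG dinucleotides, with a range of 1 to 45, and the 5 called lower had a median of 22, with a range of 15 to 22. *Ltbp2* had 20. CG content goes with the breadth of a gene's expression in general, and no test was made of these counts.

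Genes that the cKO+/- cerebellum did express also rose. *Dmp1*, which encodes a matrix protein of dentin and bone, was at 19.97, 24.7 and 25.6 CPM in the lowest, median and highest cKO+/- sample and at 45.95, 52.9 and 62.3 CPM in cKO-/- (log2 fold change 1.16 ± 0.08, adjusted p = 1.3e-05). *Ttn*, which encodes titin, the spring protein of striated muscle, was at 1.41, 2.05 and 6.48 CPM in cKO+/- and at 18.7, 33.2 and 81.0 CPM in cKO-/- (log2 fold change 3.87 ± 0.42, adjusted p = 6.1e-04). *Ostn*, which encodes osteocrin, a peptide known from bone and muscle, went from 0.835, 2.31 and 4.57 CPM to 10.3, 15.5 and 25.2 CPM (log2 fold change 2.63 ± 0.30, adjusted p = 8.9e-04). The cKO-/- animals spread widely in *Ttn*, yet the lowest of them stayed above the highest cKO+/- sample. *Serpinb2* encodes an inhibitor of plasminogen activators. It was at 1.55 to 3.85 CPM in cKO+/- and 9.73 to 24.01 CPM in cKO-/-, with medians of 2.76 and 14.3 (log2 fold change 2.42 ± 0.26, adjusted p = 6.5e-04), and at 0.152 to 0.784 CPM in the controls. *Fbln7*, a fibulin gene of the extracellular matrix, had medians of 9.37 CPM (7.95 to 10.1) and 18.96 CPM (17.9 to 27.1), a log2 fold change of 1.14 ± 0.11 (adjusted p = 2.9e-04).

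*Rps4l* is a copy of the ribosomal protein gene *Rps4x* that RefSeq lists as a transcribed pseudogene, and reads of the copies may be shared. It was at 16.6 to 21.2 CPM in cKO+/- and at 31.1 to 40.8 CPM in cKO-/- (medians 18.2 and 36.9, log2 fold change 0.96 ± 0.08, adjusted p = 7.8e-05). *Rps4x* had a log2 fold change of 0.18 ± 0.13 and did not pass the test (adjusted p = 0.747). *Dach2* encodes a transcriptional cofactor of the Dachshund family, known from a developmental network with Eya proteins, and it lies on the X chromosome. Its level was 3.93, 8.41 and 8.67 CPM in the lowest, median and highest cKO+/- sample and 18.1, 27.1 and 30.9 CPM in cKO-/- (log2 fold change 1.76 ± 0.20, adjusted p = 8.9e-04), with controls at 1.06 to 2.73 CPM. Of the 9 tested genes of the list of this network it was the one called. *Dach1*, its close relative, was at a mean of 40.0 and 40.3 CPM (adjusted p = 0.988).

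Further genes called higher are named here after their values were seen, apart from *Cox7b2*, which is in a list. *Tlr4*, the receptor for bacterial lipopolysaccharide, rose from a median of 5.94 CPM (5.02 to 8.35) to one of 14.8 CPM (11.3 to 23.3), a log2 fold change of 1.38 ± 0.17 (adjusted p = 1.6e-03). *Casp1*, the protease of inflammasomes, rose from 5.53 CPM (3.88 to 7.73) to 13.99 CPM (9.15 to 18.7), a log2 fold change of 1.30 ± 0.17 (adjusted p = 2.7e-03). Both are best known from myeloid cells. Of 14 microglial genes 12 were higher and 2 lower, with a median log2 fold change of 0.07. None was called, which says little where 0.259% of all genes tested were. Their summed level was 205 to 321 CPM in cKO+/- and 186 to 346 CPM in cKO-/-. The part of microglia in *Tlr4* and *Casp1* was not tested. *Cacng4*, an auxiliary subunit gene of AMPA receptors, rose less, from 12.1 CPM (11.2 to 13.5) to 16.4 CPM (15.0 to 17.7), a log2 fold change of 0.42 ± 0.07 (adjusted p = 0.038).

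*Cox7b2*, a gene related to a subunit of cytochrome oxidase and known from testis, rose from 0.725 CPM (0.550 to 1.19) to 2.59 CPM (2.27 to 3.17), a log2 fold change of 1.72 ± 0.21 (adjusted p = 1.6e-03). *Lgr6*, a receptor for R-spondins in Wnt signalling, rose by a log2 fold change of 1.19 ± 0.17 (adjusted p = 5.5e-03), and *Col4a6*, a basement membrane collagen gene on the X chromosome, by a log2 fold change of 0.83 ± 0.11 (adjusted p = 2.8e-03). *Phex*, an X-linked endopeptidase gene that acts in bone and phosphate balance, rose by a log2 fold change of 1.04 ± 0.16 (adjusted p = 0.011). *Gm4371*, *Gm2762*, *Gm11413*, *Tmem196*, *Fam3c*, *Sh2b2*, *Agmo*, *E2f3* and *Mybpc1* were also called higher. Their log2 fold changes ran from 0.32 for *Fam3c*, which encodes a secreted protein, to 1.85 for *Gm4371*, listed by RefSeq as a transcribed pseudogene. *Mybpc1*, a myosin-binding protein gene of slow muscle, overlapped between the groups at 38.3 to 88.2 and 72.6 to 118 CPM. *Sh2b2* was at 3.80 to 4.39 CPM in cKO+/-, below the controls at 4.71 to 9.26 CPM. In cKO-/- it was at 5.81 to 10.25 CPM, which overlapped with the controls. Of the 36 called genes, 5 (13.9%) lie on the X chromosome, which holds 3.50% of the genes tested, and 0 lie on chromosome 3, which holds *Pogz* and 4.86% of the genes tested.

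*Ltbp2* was the most abundant in cKO+/- of the 6 genes that fell, and in cKO-/- it was below *Synpo*. It encodes a latent TGF-beta binding protein of elastic fibres. Its level was 24.95, 33.6 and 43.4 CPM in the lowest, median and highest cKO+/- sample and 6.87, 12.3 and 17.8 CPM in cKO-/-, against 61.2 to 105 CPM in the controls. No sample of one group reached another across these 3 levels, and the fold change between the mutant groups was -1.40 ± 0.21 on the log2 scale (adjusted p = 8.7e-03). Its exons share 694 bases with those of *D030025P21Rik* on the opposite strand, which was too low to be tested. *Mamstr*, a coactivator gene of MEF2 transcription factors, fell from 3.08 CPM (2.50 to 4.29) to 1.39 CPM (1.15 to 1.75), a log2 fold change of -1.17 ± 0.17 (adjusted p = 6.3e-03). *Rnf39*, a RING finger gene, fell from 5.66 CPM (4.27 to 6.86) to 2.63 CPM (1.45 to 3.14), a log2 fold change of -1.23 ± 0.20 (adjusted p = 0.016).

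*Rprml*, a gene related to the cell cycle arrest gene reprimo, fell from 2.45 CPM (2.31 to 4.50) to 0.765 CPM (0.225 to 1.39), a log2 fold change of -1.91 ± 0.32 (adjusted p = 0.022). It is also a gene of the hippocampal and cortical neuron list, at a median of 69.2 CPM in the hippocampus of cKO+/- mice. *Nrgn*, of the same list, was at 1.20 to 1.79 CPM in 4 cKO-/- samples, below every cKO+/- sample, at 21.0 and 104 CPM in the other cKO-/- samples, and at 2.03 to 44.7 CPM in cKO+/-. Its part in *Rprml* was not tested. *Synpo*, which encodes synaptopodin, an actin-associated protein of dendritic spines, fell from 19.8 CPM (18.6 to 23.6) to 14.1 CPM (11.6 to 17.2), a log2 fold change of -0.50 ± 0.09 (adjusted p = 0.042). *Derl3*, which acts in the removal of misfolded proteins from the endoplasmic reticulum, fell from 2.63 CPM (1.70 to 4.16) to 1.13 CPM (0.508 to 1.33), a log2 fold change of -1.46 ± 0.27 (adjusted p = 0.044). The controls were at 17.0 to 23.6 CPM for *Synpo* and at 1.14 to 5.03 CPM for *Derl3*. Both mutant groups overlapped with the controls in both genes, cKO-/- only narrowly for *Synpo*, at 17.17 against 17.01 CPM.

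**Figure D3:**
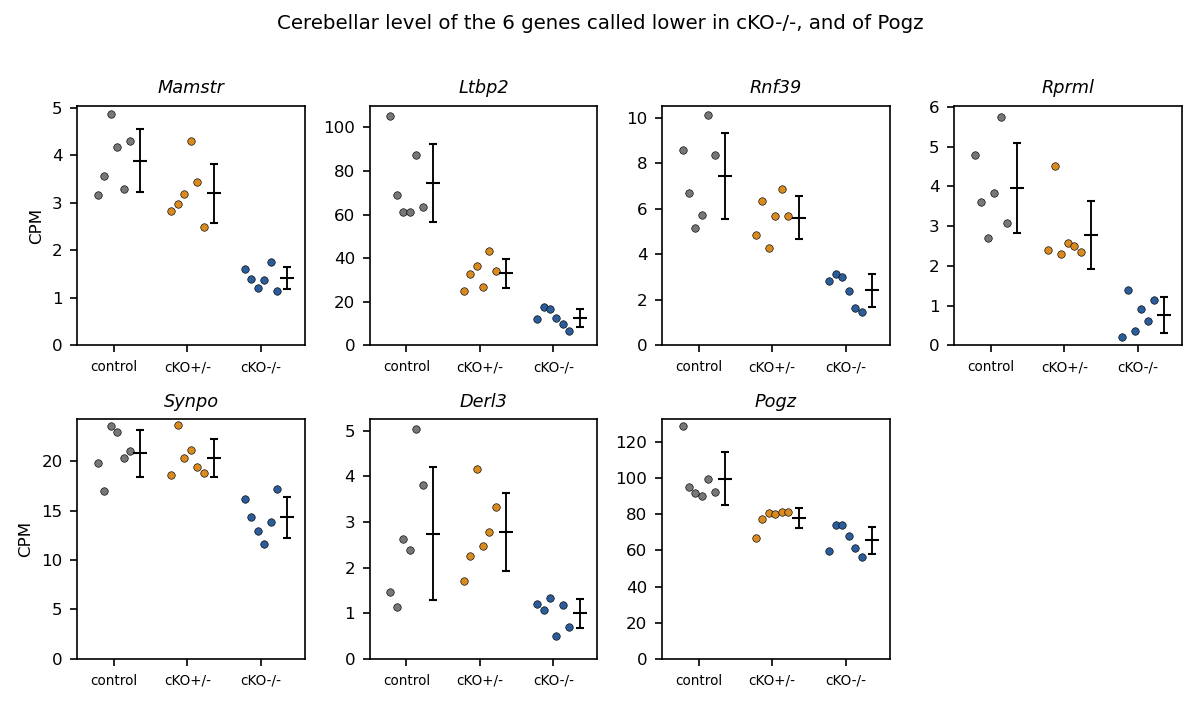
Level in CPM of the 6 genes called lower and of *Pogz* in cerebellar controls (grey), cKO+/- (orange) and cKO-/- (blue), 6 animals each, with points for animals and bars for the mean and SD. In the 6 called genes every cKO-/- point lies under every cKO+/- point, and for *Pogz* the 2 ranges overlap.

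Of 6 genes taken from the study's text, *Dach2*, *Akr1c13* and *Gm364* were called as given above and the others were not. The study's own test was unlike this one, a fit of the number of intact copies over all 3 genotypes, controls among them. Its text names *Shank2* for another mouse model and not for a change of expression. *Igf1* had medians of 12.3 CPM (11.1 to 18.4) in cKO+/- and 17.1 CPM (13.5 to 24.5) in cKO-/-, a log2 fold change of 0.39 ± 0.16 (adjusted p = 0.543). *Igf2* had medians of 207 CPM (149 to 266) and 276 CPM (161 to 321), a log2 fold change of 0.30 ± 0.17 (adjusted p = 0.676). *Shank2*, a scaffold gene of excitatory synapses, had medians of 252 CPM (220 to 290) and 275 CPM (221 to 433), a log2 fold change of 0.25 ± 0.15 (adjusted p = 0.700). For all 3 the ranges of the 2 mutant groups overlapped. The controls were at 9.80 to 12.4 CPM for *Igf1*, at 91.5 to 143 CPM for *Igf2*, below every mutant sample, and at 98.15 to 265 CPM for *Shank2*.

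The 33 lists of cell types and pathways held 742 different genes that were tested, and 8 of these (1.08%) were called, against 0.259% of all genes tested. Among the 8 are *Dach2*, *Akr1c13* and *Gm364*, which the study's text names, and the lists were chosen with earlier results known, so nothing is read from the higher share. Of the 33 lists, 26 held no called gene, which for lists of 1 to 81 tested genes is little to go by at this background. None of the genes in the lists of cerebellar cell types passed the test. Of 20 Purkinje cell genes, 18 were higher in cKO-/- and 2 lower, with a median log2 fold change of 0.20 and a range of -0.01 to 0.35. All 18 granule cell genes tested were lower, with a median of -0.21 and a range of -0.50 to -0.09. *Gabra6* had means of 913 and 771 CPM (log2 fold change -0.24 ± 0.17, adjusted p = 0.754) and *Barhl1*, a granule cell transcription factor, 17.8 and 13.6 CPM (log2 fold change -0.39 ± 0.12, adjusted p = 0.372). In bulk tissue, fewer cells of a type and less RNA per cell cannot be told apart. In the animals outside the number range from Sample_1120 to Sample_1219 all 18 granule cell genes were lower (median -0.20). Within it, with 2 cKO-/- and 3 cKO+/- animals, 9 were higher and 9 lower (median 0.0009), a split made after seeing the data. With the range as a covariate all 18 were lower (median -0.15). Without Sample_1385, 15 were lower and 3 higher (median -0.11). *Gabra6* was at 1016 and 1020 CPM in the cKO-/- samples within the range and 934 to 1086 CPM in the cKO+/- ones, and at 490 to 750 and 667 to 896 CPM outside it. Purkinje cell genes had medians of 0.08 within and 0.23 outside the range, and 0.03 without the 4 samples with *Nrgn* above 10 CPM. The summed granule cell level ran from 6043 to 11470 CPM in cKO+/- and from 5306 to 11020 CPM in cKO-/-.

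Interneuron, astrocyte, oligodendrocyte and vascular lists had medians of 0.16, 0.03, 0.09 and -0.09, with 0 genes called. The 16 meningeal fibroblast genes leaned up, with 15 higher, a median of 0.43 and 9 at an unadjusted p under 0.05, but 0 called. Their summed level was 367 to 578 CPM in cKO+/-, 376 to 738 CPM in cKO-/- and 300 to 408 CPM in the controls. Within the number range 7 of the 16 were higher (median -0.05) and outside it 15 (median 0.50). The part of the meninges in the matrix genes that rose, *Fbln7* and *Col4a6* among them, was not tested. *Slc6a13*, a transporter gene of the meninges, had the smallest p of the list, at means of 15.7 and 25.8 CPM (log2 fold change 0.73 ± 0.21, adjusted p = 0.289). Of 30 matricellular and elastic fibre genes tested, *Ltbp2* was called and *Thbs1*, which encodes thrombospondin, had the highest log2 fold change at 0.96 ± 0.25 (adjusted p = 0.209).

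Genes of chromatin silencing that work with POGZ showed no call, which says little where 0.259% of all genes tested were called. The 29 tested partners and heterochromatin genes had a median of -0.02, from -0.24 for *Dnmt1*, the maintenance DNA methyltransferase, to 0.41 for *Adnp*. *Lbr*, the lamin B receptor that tethers heterochromatin to the nuclear envelope, had the smallest p, at 28.2 and 24.5 CPM (log2 fold change -0.20 ± 0.07, adjusted p = 0.388). Of the 8 tested germline and testis genes *Gm364* was called, and *Rnf17*, which works in the piRNA system of germ cells, was just short of the threshold at means of 2.36 and 5.88 CPM (log2 fold change 1.32 ± 0.25, adjusted p = 0.0502). Imprinted genes had a median of 0.00 over 29 tested, with *Snrpn* at 2.37 and 4.15 CPM (log2 fold change 0.81 ± 0.23, adjusted p = 0.289). Of 53 clustered protocadherins, adhesion genes that give neurons an identity, 0 were called, and *Pcdhga12* came closest at 25.8 and 15.9 CPM (log2 fold change -0.70 ± 0.13, adjusted p = 0.0583).

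Genes of synaptic transmission and excitability did not pass the test either, which also says little where 0.259% of all genes tested were called. The 11 GABA-A receptor subunits had a median of 0.01. Of those, *Gabra2* and *Gabra3*, which the study's text mentions and which were added after their values were seen, were both higher on average. *Gabra2* was at 83.4 ± 7.35 CPM in cKO+/- and 97.3 ± 27.98 CPM in cKO-/- (SD, n = 6 each, log2 fold change 0.23 ± 0.15, adjusted p = 0.735), and *Gabra3*, an X-linked gene, at 22.1 ± 8.95 and 31.7 ± 12.9 CPM (log2 fold change 0.55 ± 0.30, adjusted p = 0.666). Neither passed the test. The 25 glutamate receptor genes had a median of 0.07. The 39 potassium channel genes had a median of -0.05, with the lowest value in *Kcnh3* at 2.21 and 1.24 CPM (log2 fold change -0.83 ± 0.23, adjusted p = 0.243), and the 30 sodium, calcium and HCN channel genes one of -0.03. The 43 tested genes of autism and intellectual disability had a median of -0.06 with 0 called. Of 16 immediate early genes, which neuronal activity switches on within minutes, 12 were higher in cKO-/-, with a median of 0.44 (0.80 within the number range and 0.19 outside it), and 8 higher and 1 lower at an unadjusted p under 0.05, but 0 called. *Fos* ranged over 6.53 to 72.3 CPM in cKO+/- and 38.9 to 125 CPM in cKO-/- (log2 fold change 1.63 ± 0.51, adjusted p = 0.358). The clock list had a median of -0.10 with 0 called.

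Lists of mitosis, interferon response, neuropeptide, Igf and Tgf-beta, and regional homeobox genes had medians of -0.07, -0.20, 0.09, 0.02 and 0.05, with 0 called in each.

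Large lists of housekeeping genes leaned up by small amounts, in a direction that turned within the number range. Of 78 tested subunits of oxidative phosphorylation, 76 were higher, with a median of 0.11, and of 81 cytosolic ribosomal protein genes, 69 were higher, with a median of 0.09. Within the number range 12 of the 78 and 15 of the 81 were higher (medians -0.09 and -0.10), and without the 4 samples with *Nrgn* above 10 CPM the medians were -0.02 and -0.04. The genes called in them were *Cox7b2* and *Rps4l*. The Akr1c and serpin list had *Akr1c13* and *Serpinb2* called among 10 tested, and 15 of its genes were at 0 in all 12 samples.

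**Figure D4:**
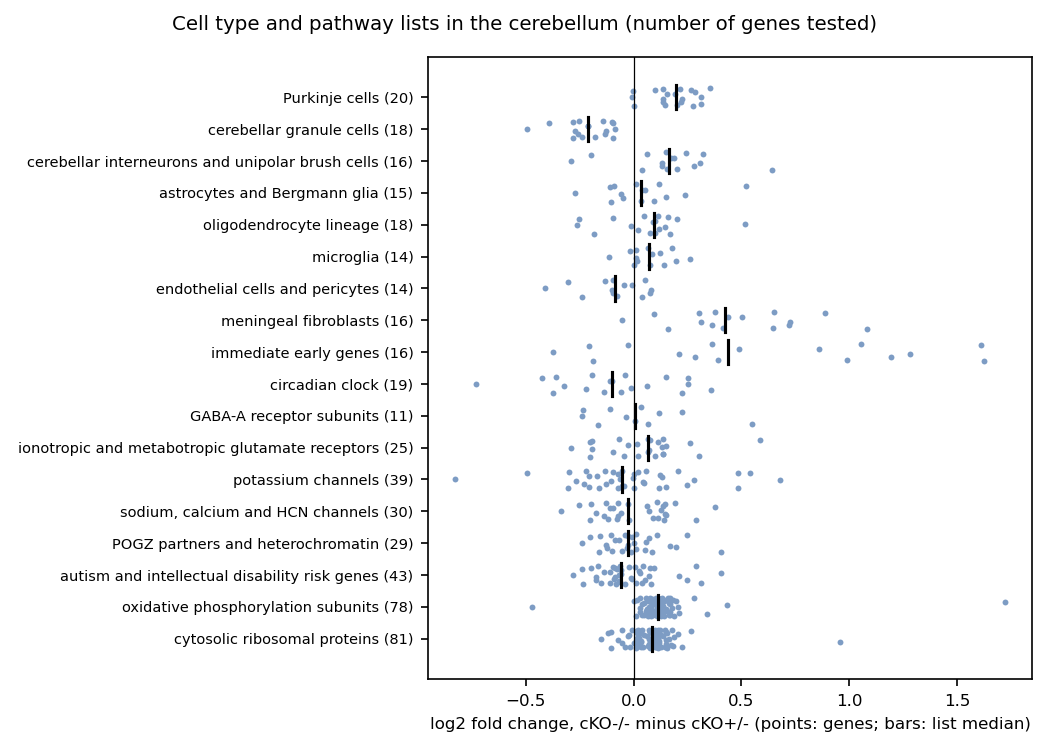
Log2 fold change (cKO-/- minus cKO+/-) of each tested gene in 18 cell type and pathway lists in the cerebellum, with the number tested in brackets and a black bar at each list's median. Purkinje cell genes lie mostly right of 0 (median 0.20) and granule cell genes left of it (median -0.21), and the points at 1.72 and 0.96 in the last lists are *Cox7b2* and *Rps4l*.

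The same step was then set beside the hippocampus of the same animals, where 1 sample, Sample_1160, was left out, so that 5 cKO-/- samples met 6 cKO+/- samples. The study excluded 1 RNA sample as abnormal without naming it in its text, and this library was taken to be that one. There 66 of 14130 genes, 0.467%, were called, against 15 of 14178 with all 12 samples. Of the 36 cerebellar genes, 24 were tested in the hippocampus and 6 were called there, each of them higher in cKO-/- as in the cerebellum. Their hippocampal log2 fold changes were those of *Dach2* (2.45 ± 0.12), *Ttn* (2.16 ± 0.14), *Gm4371* (1.40 ± 0.16), *Dmp1* (0.87 ± 0.09), *Tmem196* (0.68 ± 0.10) and *Rps4l* (0.56 ± 0.11). With all 12 hippocampal samples, 6 of the 36 cerebellar genes were called. Whether they are the same 6 was not compared, since other genes can pass the filter there.

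The other 12 were not tested there. With 5 cKO-/- samples, a gene at or below 1 CPM in every cKO+/- sample cannot pass the filter of 6, and levels are given instead. *Gm364* was at 5.07 to 7.44 CPM in the hippocampus of cKO-/- and at most 0.042 CPM in cKO+/-. *Akr1c13* was at 1.66 to 3.08 CPM against 0.079 to 0.294 CPM. *Kank4os*, *Gm13544* and *9430018G01Rik* also lay higher in every hippocampal cKO-/- sample than in any cKO+/- sample, at medians of 0.990, 0.629 and 1.70 CPM. By contrast *Amelx*, *Serpinb2* and *Ostn* were at no more than 0.233 CPM in any of these hippocampal samples.

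**Figure D5:**
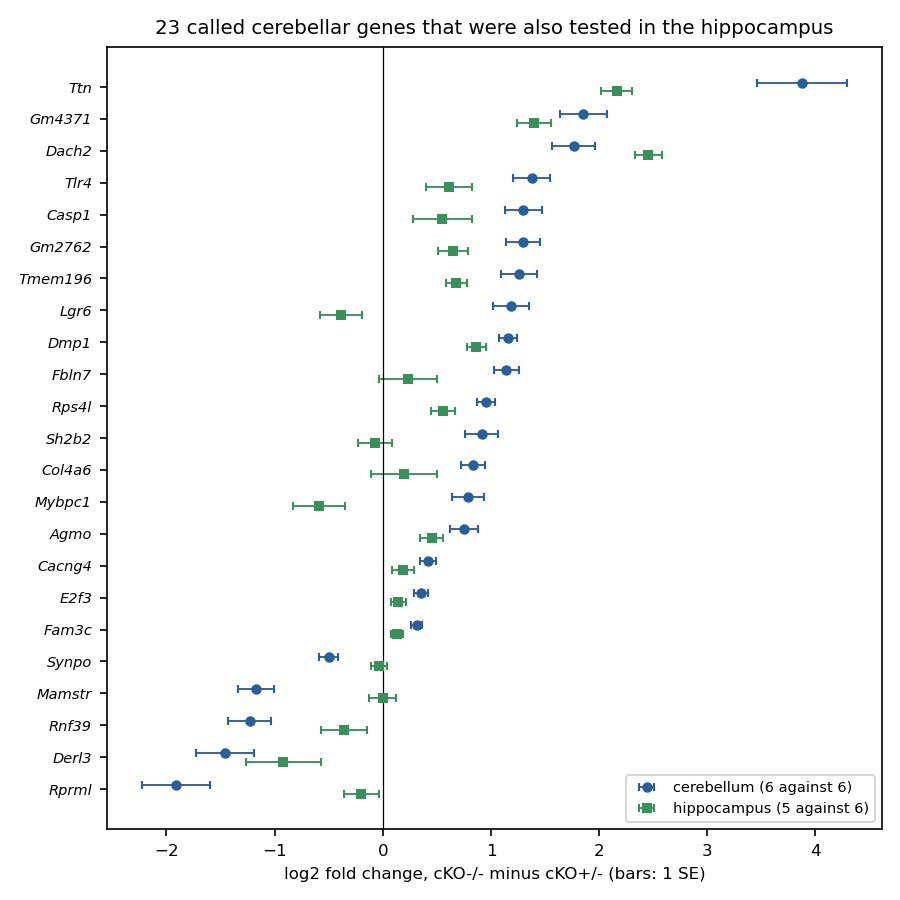
Log2 fold change (cKO-/- minus cKO+/-) with 1 SE in the cerebellum (blue circles) and hippocampus (green squares) for 23 of the 24 called cerebellar genes that were tested in both. *Dach2*, *Ttn* and *Gm4371* lie above 1 in both tissues, and the points of *Lgr6*, *Mybpc1* and *Sh2b2* lie on opposite sides of 0.

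A test of the difference between tissues, in log2 fold change of cerebellum minus hippocampus, called 4 of 14668 genes, 0.0273%. *Lgr6* and *Mamstr* were among them. *Lgr6* rose in the cerebellum from 4.29 CPM (3.92 to 6.55) to 10.6 CPM (9.36 to 14.2) and in the hippocampus stood at 1.90 and 1.32 CPM, a difference of 1.60 ± 0.27 (adjusted p = 0.0325). *Mamstr* was at 1.58 and 1.49 CPM in the hippocampus, a difference of -1.15 ± 0.20 (adjusted p = 0.0325). *Oxtr*, the oxytocin receptor gene, was at 1.14 and 3.71 CPM in the cerebellum and 11.7 and 7.69 CPM in the hippocampus (difference of 2.02 ± 0.34, adjusted p = 0.0325). *Wfs1*, which encodes wolframin of the endoplasmic reticulum, was at 52.6 and 55.9 CPM in the cerebellum and 139 and 95.1 CPM in the hippocampus (difference of 0.67 ± 0.10, adjusted p = 0.0285). With the animal as a block, which pairs the tissues, 0 genes were called and these 4 had adjusted p-values of 0.210 to 0.284, so the difference between tissues rests on the fit without pairing.

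The step did not differ detectably between the sexes. With 3 males and 3 females a group, 0 of 13880 genes passed the edgeR test of genotype by sex, and 304 were at an unadjusted p under 0.05. DESeq2 also called 0.

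The calls rest on the samples to a different degree. With each of the 12 samples left out in turn, 25 of the 36 genes were called every time, and each fit lost between 3 of the calls (without Sample_1160, 50 genes called) and 11 (without Sample_1379, 27 called). *Rnf39*, *Rprml*, *Synpo* and *Derl3*, which are 4 of the 6 lower genes, and *Fam3c*, *Sh2b2*, *Agmo*, *Cacng4*, *Gm11413*, *E2f3* and *Mybpc1* were lost in 3 to 10 of the 12 fits. Without the 4 samples with *Nrgn* above 10 CPM, a choice made after seeing the data, 12 genes were called, and they were *Gm364*, *Gm13544*, *Kank4os*, *9430018G01Rik*, *Dmp1*, *Amelx*, *Akr1c13*, *Rps4l*, *Ttn*, *Serpinb2*, *Tlr4* and *Tmem196*. Within the number range from Sample_1120 to Sample_1219, with 2 cKO-/- and 3 cKO+/- animals, 54 genes were called, 19 of them among the 36, and outside it, with 4 and 3 animals, 14 were called, 13 of them among the 36. With the range as a covariate 58 genes were called, the 36 among them.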

How the data were processed

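RNA of the cerebellum and hippocampus was made into poly(A) libraries and sequenced as short paired-end reads. The authors aligned the reads with STAR 250a and deposited whole-number read counts per gene, without normalization, for each tissue. The methods name the mm9 build, while the tables' coordinates match GRCm38, which is the build used here. The handling of strand and of reads with several matches is not given in the sources used here. Samples were grouped by their titles, and the tissue of each table was checked by *Pcp2*, *Gabra6* and *Nrgn*. Total counts were 21421850 to 32544929 per cerebellar sample.

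From these counts, levels of the named genes in the 12 mutant samples are given as CPM scaled by TMM factors over those 12 samples. Levels of the controls, list sums, marker genes and genes called in the tissue test are scaled by factors over the 18 cerebellar samples. Controls and mutants of a named gene are therefore on slightly different scales, also in the plots that show them side by side. For *Lgr6*, the cKO+/- median was 4.28 CPM on the first scale and 4.29 CPM on the second. Genes above 1 CPM in at least 6 of the 12 samples were tested with edgeR 4.0.16 in R 4.3.3 (quasi-likelihood, legacy fit, TMM factors, sex as covariate), with Benjamini-Hochberg adjustment over all genes tested and a threshold of 0.05. Samples left out do not change the genes tested. Fits with only animals of 1 range, other normalization, filters, dispersions, DESeq2 1.42.0 and all 18 cerebellar samples were alternatives. The tissue test took both tissues of the 12 animals without the hippocampal library of Sample_1160, and the animal served as a block in an alternative. To check the pairing, each sample's departure from its group was correlated between an animal's tissues, with a median of 0.195 (-0.136 to 0.353, 10 of 11 above 0.1). For only 5 of the 11 animals was the animal's own other tissue the best match. The test was checked on simulated counts. The labels do not say that samples are from separate litters, so p-values measure the spread between these animals.

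The genes named are *Pogz*, 6 taken from the study's text, the 12 higher and 12 lower called genes with the smallest adjusted p whose samples do not overlap (6 lower ones exist), called members of the gene lists, and the called genes of the tissue and sex tests. Others are named as examples after their values were seen. The comparison, its lists and tests were chosen with earlier results of these data known. Gene names that a spreadsheet had turned into dates occur in the tables and were kept apart by their place. Exon-level reads were not analysed here, and 1 of the called genes is not reported here.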

Additional observations from a re-analysis of the deposited data

Results flagged for a closer look

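In groups of 6 animals, the gap of the highest or lowest sample to its neighbour was divided by the group's range and compared with Dixon's critical value. Of 74 groups, 5 were above it, and chance flags about 1 in 20. They were *Pogz* (0.744, cKO+/- Sample_933 at 66.8 CPM, others 77.4 to 81.5), *Gm13544* (0.659, cKO+/- Sample_1433 at 0.365 CPM, others 0.038 to 0.109), *9430018G01Rik* (0.659, cKO-/- Sample_1379 at 4.07 CPM, others 5.77 to 6.90), *Dach2* (0.733, cKO+/- Sample_1120 at 3.93 CPM, others 7.03 to 8.67) and *Rprml* (0.836, cKO+/- Sample_938 at 4.50 CPM, others 2.31 to 2.58). In none of the 4 called genes did the sample reach the other group.

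The step differed between cerebellum and hippocampus, by the edgeR interaction test, for *Wfs1* (0.67 on the log2 scale, cerebellum minus hippocampus), *Lgr6* (1.60), *Oxtr* (2.02) and *Mamstr* (-1.15). None of the 4 passed with the animal as a block.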

How the results depend on the processing

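Of the 828 values of the 36 called genes under the alternatives, 666 kept their direction and their side of the threshold, 162 lost the call and 0 changed direction. The 36 calls became 163 with DESeq2 (87 higher, all 36 among them), 58 with all 18 cerebellar samples (34 shared), 58 with a covariate for the range of animal numbers (all 36 shared), 12 without the 4 samples with *Nrgn* above 10 CPM and 14 with the animals outside the range alone (13 shared). The last 2 have fewer samples. The 32 calls with a fold above 1.5 became 88 with DESeq2, 49 with all 18 samples, and 12 and 14 in the last 2 fits. The cause of the change was not tested for DESeq2, the 18 samples or the covariate. Leaving out 1 sample at a time gave 27 to 50 calls, 26 to 43 with a fold above 1.5, 122 to 198 genes whose groups do not overlap against 112, and 0 to 1 for sex (1 without Sample_1219). The count for overlap rises by construction with fewer samples. For the difference between tissues, 4 calls became 0 to 7 with 1 animal left out, with 0 each time without Sample_933, Sample_1120, Sample_1176, Sample_1189, Sample_1219, Sample_1371 or Sample_1433, 21 with DESeq2 (4 shared) and 0 with the animal as a replicate block, which pairs the tissues. Within each tissue no paired analysis was possible because each animal has 1 genotype. Counts per list changed in 39 of 759 values.

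Few reads limit 11 of the called genes, *Kank4os*, *Amelx*, *Akr1c13*, *Mamstr*, *Rnf39*, *Rprml*, *Derl3*, *Gm4371*, *Cox7b2*, *Gm2762* and *Gm11413*, of which at least 1 cKO-/- sample held fewer than 100 reads.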

Other observations

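*Tmem181b-ps*, a pseudogene on chromosome 17, stood at a mean of 80.6 CPM in cKO+/- and 20.2 CPM in cKO-/-, a fitted log2 difference of -3.19 ± 1.15, with no overlap between the groups, and did not pass the test (edgeR, adjusted p = 0.451). *Myo15*, a myosin gene of hair cells, stood at 2.48 and 0.502 CPM (log2 fold change -2.33 ± 0.47, adjusted p = 0.0706). *Trpc5*, a cation channel gene, stood at 10.7 and 16.5 CPM (log2 fold change 0.61 ± 0.12, adjusted p = 0.0572). These 3 were chosen after their values were seen.

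*Gm364* in the controls, at 0 to 0.035 CPM, and in cKO+/-, at 0, stood at the lower end of what these depths can show, while the cKO-/- samples lay within 18.2 to 25.1 CPM in the cerebellum and 5.07 to 7.44 CPM in the hippocampus.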
